A study of Arabidopsis thaliana with 6 samples.

Results

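AT1G58025 is a gene on chromosome 1 of *Arabidopsis thaliana* for a protein with a bromodomain. It was read out by 1 probe set, 245865_at, of the 22746 on the array that are not controls, and its transcript signal was far higher in *top1a-2* inflorescences than in wild-type ones. A probe set is several short DNA probes whose brightness is combined into 1 signal for a transcript. The gene was selected on this difference, the 3 wild-type against the 3 *top1a-2* signals, so those values are given below as a description and without a test. The platform annotation names AT1G58025 alone for this probe set, and RefSeq's table for the TAIR10.1 assembly lists 6 transcripts for the gene, which the single signal does not separate.

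The series holds 6 arrays of inflorescences, the shoot tips with flower buds and open flowers, from plants of the accession Landsberg erecta grown in continuous light. This accession carries the *erecta* mutation, which changes the form of the inflorescence and is shared by both groups. The 3 wild-type arrays carry no labelled mutation, and the other 3 are of the mutant *top1a-2*, an allele of a gene for DNA topoisomerase 1. The *top1a-2* group rests on that single allele, and the sources used here do not say how many plants went into each RNA sample. The series calls the replicates biological.

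A bromodomain is a protein fold that binds acetylated lysines, above all those on the tails of histones. Proteins with this fold occur in histone acetyltransferases, in chromatin remodelling complexes of the SWI/SNF type and among regulators of transcription, where they help to bring such machinery to acetylated chromatin. DNA topoisomerase 1 cuts and reseals 1 strand of the DNA and so removes the supercoils that form during transcription and replication.

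The wild-type arrays gave log2 signals for AT1G58025 of 7.93, 7.37 and 7.15 in replicates 1, 2 and 3. The *top1a-2* arrays gave 11.65, 11.79 and 11.29 in the same order. Every *top1a-2* array was above every wild-type array, and the spread inside a genotype was small beside the gap between them. The wild-type values spanned 0.78 and the *top1a-2* values 0.50 on the log2 scale, while the lowest *top1a-2* value lay 3.36 above the highest wild-type value.

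On the unlogged scale the wild-type signals were 244, 165 and 142, and those of *top1a-2* were 3214, 3541 and 2504. The closest pair of arrays from different genotypes was therefore 10.3-fold apart and the most distant pair 24.9-fold apart. The difference of the log2 means, *top1a-2* minus wild type, was 4.09, which is a 17.1-fold higher signal. Its standard error in the limma fit was 0.20, a value drawn toward that of other probe sets of similar brightness. The pooled SD of its own arrays within genotypes was 0.34. The ratio of the mean unlogged signals, 184 ± 53.3 in the wild type and 3086 ± 530.2 in *top1a-2* (SD, n = 3), was 16.8. These are bulk samples, in which a change in the cells that carry the transcript and a change in the transcript per cell cannot be told apart.

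**Figure D1:**
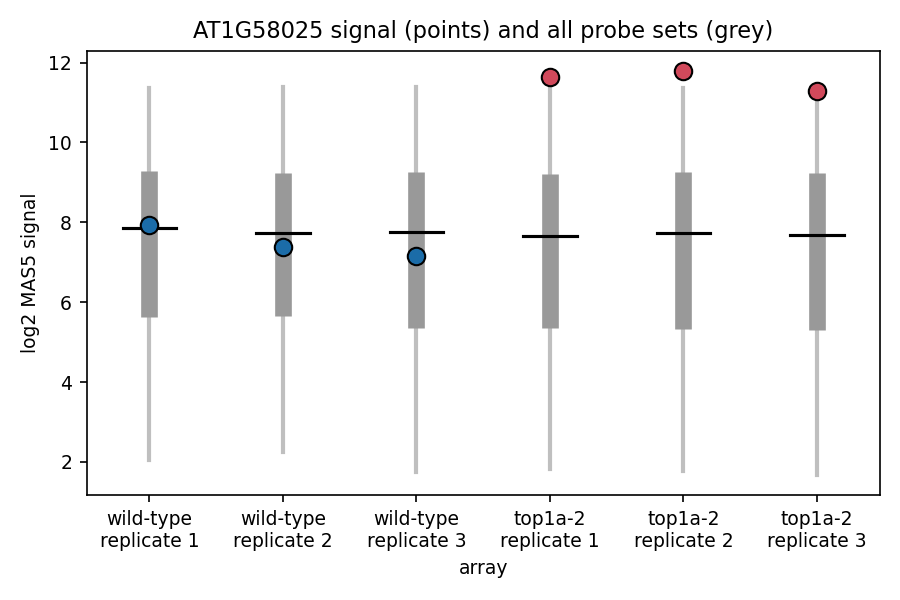
Log2 MAS5 signal of AT1G58025 on each of the 6 arrays (points, blue for wild type and red for *top1a-2*), over the spread of all probe sets that are not controls on that array (black line, median; thick grey bar, 25th to 75th percentile; thin grey line, 5th to 95th percentile). The wild-type points at 7.15 to 7.93 lie near the array median, and the *top1a-2* points at 11.29 to 11.79 lie near or above the 95th percentile.

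The place of this probe set within each array moved with the values. Counted from the brightest of the 22746 probe sets, it ranked 11038, 12578 and 13114 on wild-type replicates 1, 2 and 3. On *top1a-2* replicates 1, 2 and 3 it ranked 936, 807 and 1252. In other words, 51.3%, 44.6% and 42.3% of probe sets were dimmer on the wild-type arrays and 95.8%, 96.4% and 94.4% on the *top1a-2* arrays. The signal stood 0.08 above the array median in wild-type replicate 1 and 0.37 and 0.61 below it in replicates 2 and 3, against 4.0, 4.06 and 3.60 above it in *top1a-2*. A rank depends on how well the probes of a set bind as well as on the transcript, so it is read here only between arrays. The array medians themselves lay between 7.65 and 7.85.

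Replicates of this gene varied more than those of most probe sets of similar brightness. Its SD over the wild-type arrays was 0.40, where the median SD was 0.23 among the 3110 other probe sets whose wild-type mean lay within 0.5 of its own mean of 7.48. Of those, 83.7% had a lower SD. Over the *top1a-2* arrays its SD was 0.26 around a mean of 11.58, against a median of 0.11 among 834 other probe sets with a *top1a-2* mean within 0.5, of which 93.3% had a lower SD. In both genotypes this spread was small beside the difference between them.

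Among all 22746 probe sets, 3 had a log2 increase as large as that of AT1G58025 or larger, the gene itself included. The other two were the probe sets of *QQS*, an orphan gene that affects starch content, at 4.98, and of AT3G45730 at 4.49. The latter was dim in the wild type, with a mean of 1.44, whereas AT1G58025 had a wild-type signal close to the middle of its arrays. Because each probe set binds with its own strength, this does not compare their amounts of transcript. The 3110 probe sets with a wild-type mean like that of AT1G58025 had a median difference of −0.01, and the middle 90% of them lay between −1.28 and 0.60. The largest increase among them was 3.24. In the other direction, decreases of at least the same size were seen for AT4G03620 at −4.79, AT4G31230 at −4.21 and AT1G16760 at −4.16, which makes AT1G58025 the sixth largest difference of either sign.

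**Figure D2:**
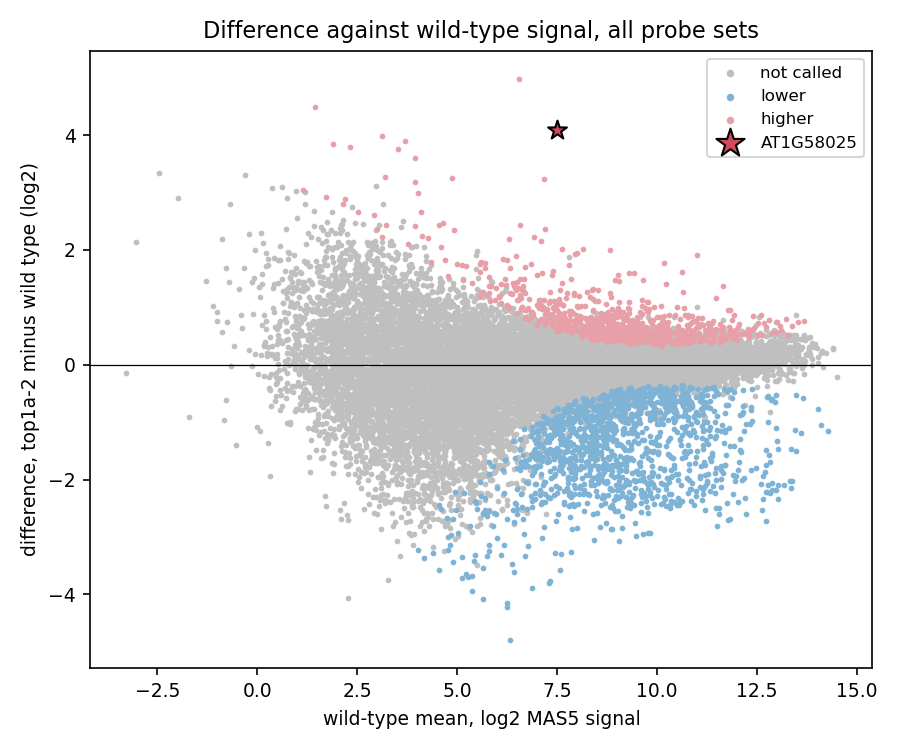
Difference between the genotypes (*top1a-2* minus wild type, log2) against the wild-type mean log2 MAS5 signal for all 22746 probe sets, coloured by whether limma called them higher, lower or neither. AT1G58025 (star) is at a wild-type mean of 7.48 and a difference of 4.09, above every probe set of like wild-type signal, where the next largest increase was 3.24.

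The genotypes also differed in transcripts that mark pollen, the tapetum and photosynthesis, and in 1 control measure. Limma, with an adjusted p under 0.05 as the threshold, called 9.26% of all probe sets, 3.4% higher and 5.86% lower in *top1a-2*. All 11 measured pollen markers fell, and their mean log2 signal per array ran from 8.82 to 9.53 on wild-type arrays and from 7.32 to 7.47 on those of *top1a-2*. All 3 tapetum markers were lower in *top1a-2* and 2 of them were called, with array means of 10.67 to 11.05 and 9.72 to 10.02. All 5 photosynthesis genes were higher and 4 of them were called, with array means of 11.25 to 11.75 and 12.17 to 12.34. None of these markers was near 0, the lowest single value being 5.64 for the tapetum, 9.48 for photosynthesis and 4.47 for pollen. The floral regulators measured were *SPL*, which fell by 1.46, and *UFO* and *SPT*, with differences of −0.70 and 0.09. Neither *UFO* nor *SPT* was called, their groups overlapped, and *UFO* was dim, at 2.68 to 4.78. The other 10 on that list were not analysed here. The 3′ minus 5′ log2 signal of an actin control ran from 3.42 to 3.79 on wild-type arrays and from 3.95 to 4.09 on those of *top1a-2*, while those of GAPDH and ubiquitin overlapped. The part of cell composition and of RNA quality in the AT1G58025 difference was not tested.

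Within the wild type, the array with the highest pollen marker mean, replicate 1 at 9.53, also had the highest AT1G58025 signal, at 7.93. Replicates 2 and 3 had pollen means of 8.82 and 8.96 with AT1G58025 at 7.37 and 7.15. Replicate 1 also had the lowest mean of the photosynthesis genes, 11.25 against 11.75 and 11.71, and of the tapetum markers, 10.67 against 11.05 and 10.97. Between the genotypes the pollen and tapetum means were lower in *top1a-2*, while the photosynthesis means and the AT1G58025 signal were higher. A link between any of these marker levels and AT1G58025 was not tested. Without wild-type replicate 1 the AT1G58025 difference was 4.32.

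The probe sets of the mutated gene *TOP1α* and of its neighbour *TOP1β* were not analysed here, so these values give no check of the genotype labels. Of 7 topoisomerase genes on a list, 3 were measured, and none was called by limma, against 9.26% of all probe sets. So few genes cannot be set apart from that share. *TOPII*, of topoisomerase 2, had log2 signals of 8.78, 8.91 and 8.85 in the wild type and 9.02, 9.05 and 9.12 in *top1a-2*, a difference of 0.22 with a limma adjusted p of 0.273. *TOP3A*, of a topoisomerase 3, had 7.13, 7.20 and 6.66 against 7.82, 7.71 and 7.43, a difference of 0.66 with a limma adjusted p of 0.101. Neither gene overlapped between the genotypes, a state shared by 28.3% of all probe sets. AT2G32000 had a difference of 0.12 with overlapping groups.

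None of the measured genes near AT1G58025 on chromosome 1 was called higher. Within 50 loci on either side in the order of the gene table, 24 of 100 loci had a probe set for 1 gene, and limma called 0 of them higher and 1 lower. At an unadjusted p under 0.05, 0 were higher and 4 lower, where 10.9% and 12.4% of all probe sets were. Their median log2 difference was 0.11, against 0.00 over all probe sets, and the largest increase among them was 0.92, for AT1G57570, whose wild-type values of 4.75, 1.04 and 4.63 spanned more than that. The share called in this window, 1 of 24, was not above the 9.26% called over all probe sets. With only 24 genes, the 0 called higher cannot be set apart from the 3.4% over all.

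The nearest measured loci were AT1G57906, 7 loci below AT1G58025 in AGI order, and AT1G58070, 9 loci above it. The 6 and 8 loci in between were not analysed here. AT1G57906 was dim, at 5.11, 3.34 and 3.42 in the wild type and 2.59, 0.91 and 1.64 in *top1a-2*. Its groups did not overlap, with *top1a-2* on the low side, and its difference of −2.24 with a standard error of 0.84 had a limma adjusted p of 0.137. AT1G58070 had 8.06, 7.08 and 6.36 in the wild type and 6.80, 7.24 and 6.80 in *top1a-2*, a difference of −0.22 with overlapping groups and a limma adjusted p of 0.786.

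The only called neighbour was AT1G58120, 14 loci above AT1G58025. It had log2 signals of 9.32, 8.40 and 8.24 in the wild type and 6.13, 6.49 and 6.55 in *top1a-2*. The gene thus fell by 2.26 on the log2 scale with a standard error of 0.28 and a limma adjusted p of 0.000607, 4.8-fold lower, which is opposite in direction to AT1G58025. With each array left out in turn it stayed called, at a limma adjusted p of up to 0.00523.

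Between these 2 genes, AT1G58110 had 8.41, 8.58 and 7.88 in the wild type and 9.09, 8.97 and 8.30 in *top1a-2*, a difference of 0.50 with a limma adjusted p of 0.235 and overlapping groups. AT1G58150 and AT1G58170, which complete the 5 nearest measured loci on that side, had differences of −0.67 and 0.00 with limma adjusted p values of 0.705 and 0.995. AT1G58215 came next, with 7.27, 4.33 and 6.48 in the wild type and 3.28, 3.13 and 4.53 in *top1a-2*. Its difference of −2.38 had a limma adjusted p of 0.0815. When wild-type replicate 2, the lowest wild-type array for this gene, was left out, it was −3.23 with a limma adjusted p of 0.0094.

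On the other side, AT1G57850, AT1G57830, AT1G57790 and AT1G57780 came after AT1G57906. Their differences were −0.52, 0.48, 0.15 and 0.62, all with overlapping groups and limma adjusted p values between 0.558 and 0.802. Among the rest of the window, *ZW9* and *ZW2* had differences of 0.40 and −2.26. The latter had wild-type values of 4.50, 4.51 and 4.56 and *top1a-2* values of 0.83, 1.63 and 4.33, with a limma adjusted p of 0.165, and of 0.0414 without *top1a-2* replicate 3, its highest mutant array. Leaving out any other array gave no call for *ZW2*, at a limma adjusted p of up to 0.397. AT1G57590 had a difference of 0.40 with a limma adjusted p of 0.25. When wild-type replicate 1, its highest array, was left out the difference was 0.66 with a limma adjusted p of 0.0111. With any other single array left out AT1G57590 was not called, at a limma adjusted p of up to 0.494. Of the 24 measured neighbours, 9 had a wild-type mean below 5.30, the lowest first quartile of any array. The SD over the wild-type arrays of these 9 ran from 0.03 for *ZW2* to 2.11 for AT1G57570. The brighter AT1G58215 had an SD of 1.52.

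**Figure D3:**
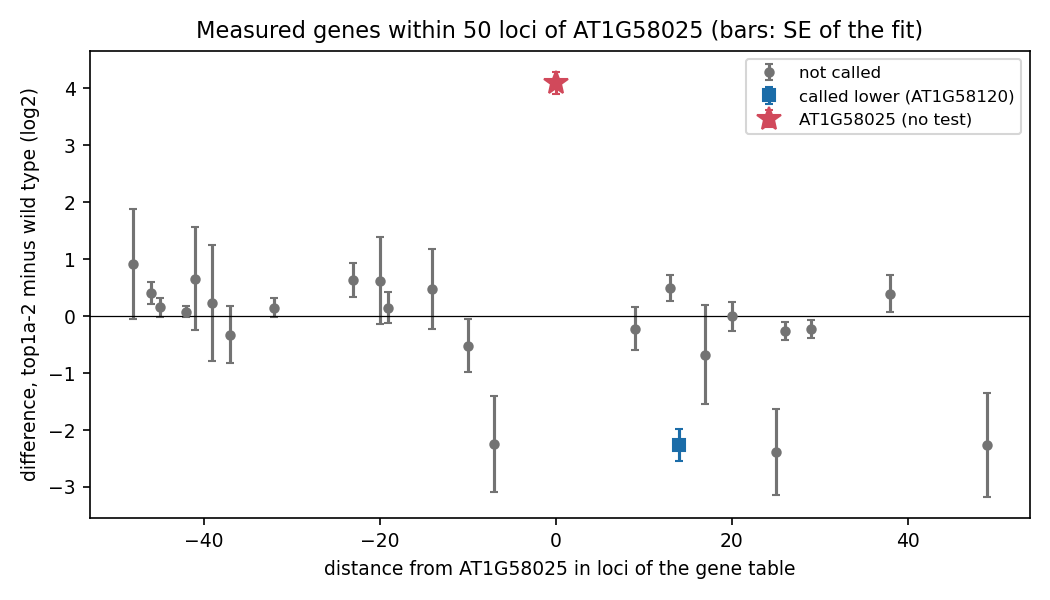
Difference between the genotypes (*top1a-2* minus wild type, log2, bars for the standard error of the fit) of the 24 measured genes within 50 loci of AT1G58025, against their distance in loci of the gene table. AT1G58025 at 4.09 (star) stands alone above 1, the neighbours lie between −2.38 and 0.92, and AT1G58120 (square) is the only one called.

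None of the other measured genes for bromodomain proteins was called in either direction. A list of 27 such genes besides AT1G58025 was drawn up, of which 12 had a probe set for 1 gene, and limma called 0 of the 12, against 9.26% of all probe sets. With no adjustment, 1 of them had a p under 0.05, as did 23.3% of all probe sets. Neither count can be set apart from its share with only 12 genes. Their median log2 difference was −0.13 and the largest increase was 0.18, for AT5G46550. Of the 12, 4 had a positive difference and 8 a negative one. The 15 others, among them the SWI/SNF ATPase gene *BRM*, the acetyltransferase gene *HAG1* and most of the *GTE* genes, were not analysed here.

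The 1 gene of the 12 whose groups did not overlap was AT5G55040, a state shared by 28.3% of all probe sets. Its log2 signals were 9.06, 9.12 and 9.11 in the wild type and 8.78, 8.82 and 8.67 in *top1a-2*. Replicates of this gene lay close together and the *top1a-2* arrays were all slightly lower, by 0.34 on average with a standard error of 0.11 and a limma adjusted p of 0.09. AT1G20670 and AT1G76380 had differences of −0.03 and −0.15, with limma adjusted p values of 0.955 and 0.604. The values of AT1G20670 were 8.38, 7.94 and 7.92 in the wild type and 8.30, 8.02 and 7.84 in *top1a-2*, which overlapped almost wholly. Those of AT1G76380 were 8.46, 8.40 and 8.10 against 8.18, 8.11 and 8.22.

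AT1G17790 and AT5G46550 had differences of −0.14 and 0.18, with limma adjusted p values of 0.72 and 0.65. AT2G47410, AT5G49430 and AT1G05910 had differences of 0.15, −0.11 and 0.08. The 7 genes just given from AT1G20670 to AT1G05910 all had overlapping groups and standard errors of 0.14 to 0.20, so that a change of the size seen for AT1G58025 would have stood many standard errors away from what was measured.

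The 4 dimmer genes of the list were less precise. AT2G42150, AT3G57980 and AT3G60110 had differences of 0.08, −0.52 and −0.47 with standard errors of 0.44, 0.38 and 0.48. AT2G44430 had the largest difference, −1.33 with a standard error of 0.97, from values of 6.33, 3.65 and 3.02 in the wild type and 2.30, 2.31 and 4.40 in *top1a-2*. Its wild-type replicate 1 stood above the rest and the groups overlapped, and the limma adjusted p was 0.461. No increase passed the test in any of these genes.

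**Figure D4:**
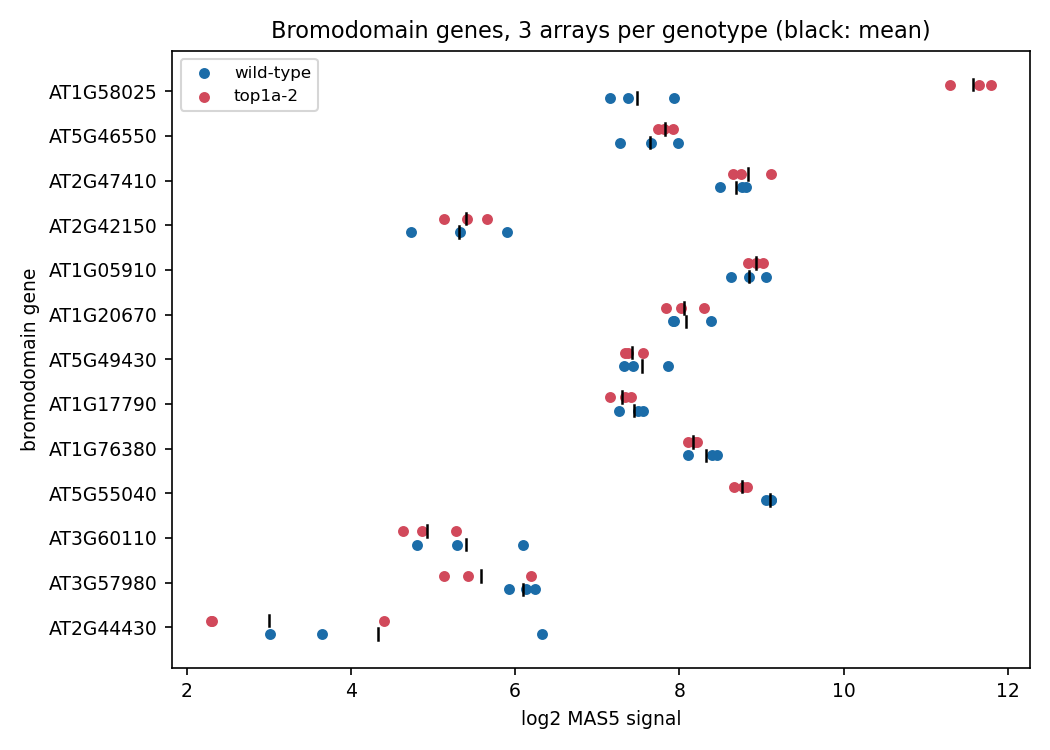
Log2 MAS5 signals of AT1G58025 and the 12 other measured bromodomain genes on the 3 wild-type (blue) and 3 *top1a-2* (red) arrays, with the mean of each group as a black line. The groups of AT1G58025 are 4.09 apart on average and those of the others between −1.33 and 0.18. Positions of different genes along the axis are not comparable, because each probe set binds with its own strength.

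Further genes of chromatin machinery were looked at from 5 lists, the topoisomerases above included, that together hold 63 loci other than AT1G58025. Of these 16 were measured, 3 of them bromodomain genes already described. Limma called 0 of the 16, against 9.26% of all probe sets. An unadjusted p under 0.05 was seen for 2 of them, AT5G55040 and *TOP3A*, and for 23.3% of all probe sets. With only 16 genes these counts cannot be set apart from those shares. Their median log2 difference was −0.04. The histone acetyltransferase list had 0 of 12 members measured.

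Among subunits of SWI/SNF remodelling complexes, which use ATP to move nucleosomes, 9 of 16 were measured. The gene for the SWI3D subunit, listed as *CHB3*, had log2 signals of 8.45, 8.73 and 8.70 in the wild type and 8.33, 8.38 and 8.43 in *top1a-2*. The groups did not overlap, and the difference of −0.25 had a limma adjusted p of 0.304. The ATPase gene *CHR23* had 7.57, 7.14 and 7.38 against 6.09, 7.32 and 7.03, with *top1a-2* replicate 1 below the others, a difference of −0.55 and a limma adjusted p of 0.337. The subunit genes *SWI3A*, *BSH*, *CHC1* and AT3G01890 had differences of 0.12, 0.13, 0.02 and −0.16.

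Of other remodelling ATPases, *INO80* and *CHR17* had differences of −0.05 and −0.06. Of the histone deacetylases, which remove the acetyl groups that bromodomains bind, 2 of 18 were measured. *HDA15* had a difference of 0.22 with a limma adjusted p of 0.432, and the dim *HDA7* one of −0.73 with a standard error of 1.04.

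Profiles most like that of AT1G58025 were sought over the 13286 genes with a probe set of their own. Each profile over the 6 arrays was centred on its own mean, and the root mean square difference from AT1G58025 was taken, in log2 units. The 10 nearest were at 0.43 to 0.86 and had groups that did not overlap, which the choice of near profiles brings with it. Nearest was AT4G15390 at 0.43, with log2 signals of 2.72, 2.07 and 2.13 in the wild type and 5.43, 6.45 and 6.40 in *top1a-2*. Its wild-type signal was low, with a mean of 2.31, while that of AT1G58025 was near its array medians. Such signals of different probe sets do not compare amounts of transcript.

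The peroxidase gene AT5G19880 followed at 0.52, with 7.43, 6.95 and 7.12 in the wild type and 10.26, 10.34 and 10.63 in *top1a-2*. *QQS* was the third at 0.59, with 7.41, 5.71 and 6.48 against 11.60, 11.48 and 11.47. In wild-type replicates *QQS* and AT1G58025 were both highest in replicate 1, and in the *top1a-2* replicates AT1G58025 was highest in replicate 2 and *QQS* in replicate 1. AT5G53240 at 0.59, AT3G45730 at 0.68 and the kinase gene AT5G11410 at 0.70 came next, and AT2G28755, AT4G16010, AT1G35650 and AT3G61090 lay between 0.76 and 0.86.

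The increases of these 10 genes ran from 2.93 for AT2G28755 to 4.98 for *QQS*. Of the 10, 8 had a wild-type mean below 5.30, the lowest first quartile of any array, so that AT5G19880 and *QQS* were the only ones with a brighter wild-type signal. Which genes were nearest depended on the arrays used. With each array left out in turn, 5 to 7 of the 10 stayed among the nearest 10.

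**Figure D5:**
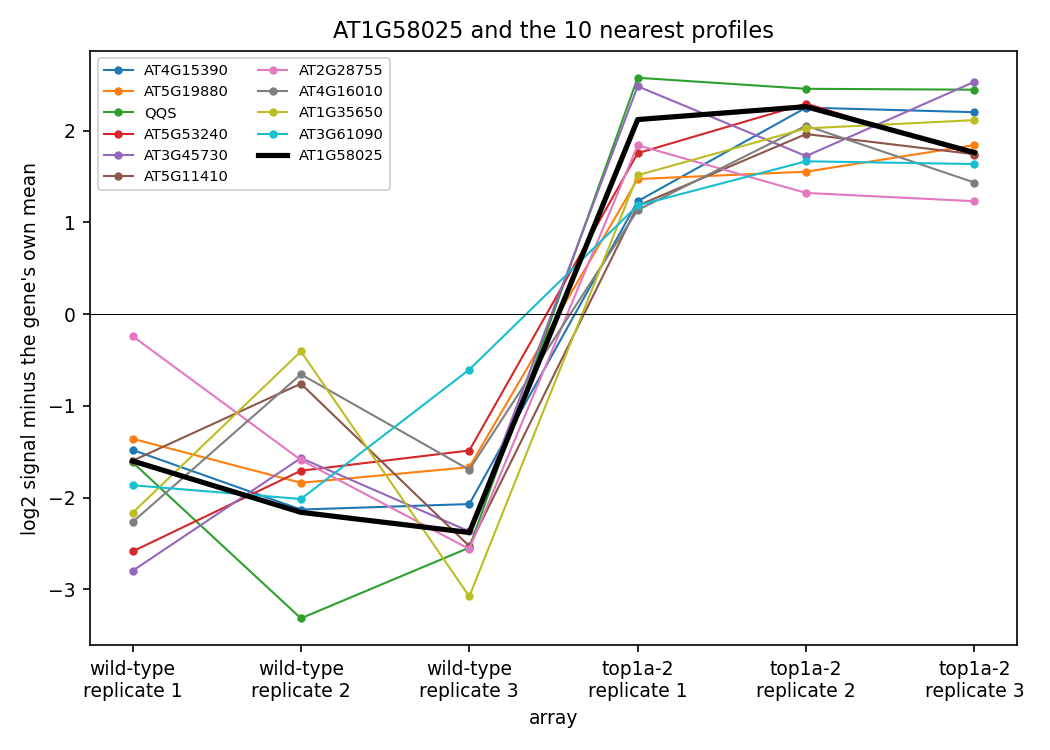
Log2 MAS5 signal minus each gene's own mean on the 6 arrays for AT1G58025 (thick black line) and the 10 genes with the nearest profiles (thin lines). All 11 step up between the genotypes, by 4.09 for AT1G58025 and by 2.93 to 4.98 for the others, and within the wild type the lines cross.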

How the data were processed

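RNA of inflorescences, 3 wild-type and 3 *top1a-2* samples, was measured on 1 Affymetrix array each. The deposited values are log2 signals, made by the authors with affy and MAS5 per the submitters' processing notes; no source used here gives versions or filters. The unlogged mean without the highest and lowest 2% of probe sets was 500.0 on every array. Precision is limited by the number of arrays.

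Without the 64 control probe sets, 22746 were fitted with limma 3.58.1 in R 4.3.3 (genotype alone, lmFit, eBayes with trend, Benjamini-Hochberg over all). Standard errors given for genes are the moderated ones of this fit. For each of 13286 genes the brightest single-gene probe set was used; 8730 probe sets are unnamed here. Named were AT1G58025, the 5 nearest measured loci on each side, any called gene within 50 loci, all measured bromodomain genes, called members and the smallest p values of the chromatin lists, and the 10 nearest profiles. Other neighbours were named after their values were seen. The gene and lists were chosen with earlier results of these data known, and bromodomain genes were found by locus and by symbol or synonym. The fit was also run on simulated data with changes placed only in probe sets brighter than the median, which says nothing about dim ones. Its noise was normal with variances moderated as in limma, so the run is no check of the fit on real arrays.

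Alternatives were median centring, quantile normalization, a pseudocount of 16, no trend, the replicate block, no dim probe sets and leaving out each array.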

Additional observations from a re-analysis of the deposited data

How the results depend on the processing

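The AT1G58025 difference was 4.19 after median centring, 4.11 after quantile normalization, 3.97 with a pseudocount of 16, 4.09 with the replicate block and 3.93 to 4.32 with single arrays left out. Among probe sets with 1 gene only, 57.6%, 50.7% and 48.2% were dimmer than AT1G58025 on wild-type replicates 1, 2 and 3 and 97.4%, 97.8% and 96.3% on those of *top1a-2*. Over all probe sets, 773 were called higher and 1334 lower; without the trend these were 209 and 633, after median centring 1153 and 1167, with the replicate block 748 and 1342, and with single arrays left out 357 to 794 and 975 to 1335, the higher calls being 357, 411 and 373 without *top1a-2* replicate 1, 2 and 3. The cause was not tested. Neighbours called lower numbered 0 without the dimmest 50% of probe sets, which removes AT1G58120, and 1 to 2 with single arrays left out; those called higher numbered 0 to 1. No bromodomain or other chromatin gene was called under any of these alternatives. Of the 49 neighbour and chromatin genes, 16 changed the sign of their difference under at least 1 alternative, and 0 of those 16 was called in any setting. Of the 10 nearest profiles, 6 were kept with a pseudocount of 16. Dim probe sets limit what could be seen, and without detection calls a low signal is not absence. Same-numbered arrays of the genotypes share only a number: their deviations correlated at 0.03, 0.00 and 0.02, not every array did so best with its own number, and the replicate block changed no call among the neighbour and chromatin genes.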
